A study of Mus musculus with 24 samples.

Results

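The 7 genes described here, Gabra3, Gabra4, Gabra5, Gabrb1, Gabrb2, Gabrg3 and Gabrd, encode subunits of the GABA-A receptor and were taken by name from the 33902 rows of a single-nucleus RNA-seq (snRNA-seq) count table. Ventral hippocampus of adult male mice of the inbred strains C57BL/6J (B6) and DBA/2J (D2) was profiled by snRNA-seq and by single-nucleus ATAC-seq (snATAC-seq), which counts open chromatin in peaks. Mice were 10 to 16 weeks old, about 2 animals were pooled per library, and each assay had 2 libraries per strain, called library 2 and library 3 after their column names. Nuclei for snRNA-seq were sorted to enrich for neurons, and nuclei for snATAC-seq were sorted without that enrichment. The deposited counts had been summed over the nuclei of each cell type in each library, so that each value below is 1 cell type in 1 library. The p-values of strain comparisons within a cell type measure the spread between 2 libraries a strain. An exact two-sided permutation test of 2 against 2 libraries cannot go below 0.33.

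Counts for 14 cell types were used in snRNA-seq (29014 nuclei, 76 to 1489 per cell type and library) and for 9 neuronal cell types in snATAC-seq (25148 nuclei, 300819 peaks). Total counts per cell type and library ran from 225029 to 11352265 in snRNA-seq and from 840366 to 27815541 in snATAC-seq. The cell type names are those of the deposited tables: 8 types of excitatory neuron (Exc), inhibitory neurons of the Inh-MGE type, and astrocytes (NN-Astro), oligodendrocytes (NN-ODC), their precursors (NN-OPC), microglia (NN-MGC) and vascular leptomeningeal cells (NN-VLMC). Summed levels of 3 marker genes per type were highest in the type of that name for Exc-DG, Exc-CA3, Inh-MGE and the 5 non-neuronal types. The 3 Exc-CA1 types held the first 3 ranks for the summed CA1 markers. In Exc-CA1-Fras1 that sum was mostly Mpped1 (mean of 212 CPM, a unit defined below). Mpped1 was also high in Exc-Cdh12 (173) and Exc-ENT (165). Fibcd1 in Exc-CA1-Fras1 (7.42) lay below NN-VLMC (9.58), and Wfs1 (3.64) below NN-Astro (13.6). These markers therefore do not settle the CA1 name of Exc-CA1-Fras1, which is taken from the deposited label. The 3 other types of the snRNA-seq table, Inh-CGE, Inh-Lamp5 and CR-CR, were not used, so that the orders of levels below hold within the 14 types. No marker list was set for Exc-ENT, Exc-Gpc6 and Exc-Cdh12, which are called by these names only.

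GABA-A receptors are chloride channels built from 5 subunits, most often alpha and beta subunits with a gamma or a delta subunit, and they carry most fast inhibition in the brain. The subunits set where a receptor sits and how it responds: receptors with alpha5 lie largely outside synapses on hippocampal pyramidal neurons, and receptors with alpha4 and delta give dentate granule cells a steady, tonic inhibition. The beta subunits form part of the GABA binding site, and gamma3, encoded by Gabrg3, is a less common alternative to gamma2.

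In the genome (GRCm38, GENCODE vM21) the genes lie partly in clusters. Gabra4 (chr5:71569749-71658308, minus strand) and Gabrb1 (chr5:71658113-72149037, plus strand) start head to head and overlap by 196 bases. Gabrg3 (chr7:56716465-57387188, minus strand) ends its 5′ side 20.5 kb from Gabra5 (chr7:57407672-57510059, minus strand). Gabrb2 (chr11:42419757-42629028, plus strand), Gabrd (chr4:155384980-155398112, minus strand) and Gabra3 (chrX:72432681-72656848, minus strand) stand apart from the other members. Gene lengths ran from 13.1 kb for Gabrd to 670.7 kb for Gabrg3. Whether counting used strand is not given in the sources used here, so reads of the bases that Gabra4 and Gabrb1 share may not be told apart, and Gabra5 counts are uncertain in the same way.

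Promoter windows of 300 bases around the start were found in RefSeq (GRCm38.p6) for 6 of the 7 members. The sequences show how unlike these starts are, and those of Gabrg3 and Gabra5 belong to the members with the clearest strain differences below. Capitals mark CpG sites, and each run is the 250 bases before the start, read 5′ to 3′ on the strand of the gene.
Gabrg3, chr7:57387216-57387465, minus strand: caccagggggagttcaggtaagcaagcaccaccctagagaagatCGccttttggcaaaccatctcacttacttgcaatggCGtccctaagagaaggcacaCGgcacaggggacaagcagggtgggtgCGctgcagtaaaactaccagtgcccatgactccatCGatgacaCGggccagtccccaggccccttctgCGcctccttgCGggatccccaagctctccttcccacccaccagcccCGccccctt
Gabra5, chr7:57510060-57510309, minus strand: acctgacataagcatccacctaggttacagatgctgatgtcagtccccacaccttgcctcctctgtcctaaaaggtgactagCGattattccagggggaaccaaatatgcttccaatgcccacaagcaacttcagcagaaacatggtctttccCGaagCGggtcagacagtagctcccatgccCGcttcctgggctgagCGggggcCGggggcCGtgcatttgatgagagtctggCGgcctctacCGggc
Gabra3, chrX:72656920-72657169, minus strand: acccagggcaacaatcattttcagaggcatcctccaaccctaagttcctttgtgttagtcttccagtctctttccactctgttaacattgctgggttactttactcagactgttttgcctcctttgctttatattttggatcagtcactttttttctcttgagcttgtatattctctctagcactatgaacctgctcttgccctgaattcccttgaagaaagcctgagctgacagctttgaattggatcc
The Gabrg3 and Gabra5 windows of 300 bases each held 13 CpG sites, a number reached by 37.9% of the 32851 windows in the table, whose median was 7. The first Gabrb1 window held 25 (reached by 18.4%), the Gabra4 window 12 (39.6%) and the first Gabrb2 window 11 (41.4%). Neither Gabra3 window held a CpG site. The 2 Gabra3 windows overlap and held the same TATAAA, on the strand opposite the gene. The first Gabrb2 window held TATAAA too, and 13.6% of all windows held it on either strand. The printed Gabra3 bases lie outside the snATAC-seq peak at the start of the gene.

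Each subunit had its own order of levels over the 14 cell types, given as CPM, the count of a gene put on a common depth by dividing it by the library size as edgeR scales it, with the mean and SD over the 4 libraries of both strains. In pooled counts of this kind, fewer nuclei of a type that express a gene and less RNA per nucleus cannot be told apart. Levels were not divided by gene length, so that they are compared between cell types and never between genes.

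Among the alpha subunits, Gabra4 was highest in dentate granule neurons (Exc-DG, 175 ± 12.3 CPM, n = 4), followed by Exc-Gpc6 (109 ± 13.2) and Exc-Cdh12 (104 ± 14.3), and lowest in oligodendrocytes (8.67 ± 4.83). The 4 Exc-DG libraries lay above all libraries of Exc-Gpc6. Gabra5 was highest in Exc-ENT (129 ± 11.7), then in Exc-CA3 (116 ± 23.2) and Exc-CA1-Galntl6 (112 ± 28.5), and these overlapped in turn down to Exc-Cdh12, whose libraries all lay above those of Exc-Gpc6. In Inh-MGE neurons Gabra5 stood at 22.8 ± 3.63 CPM, under every excitatory type. Gabra3 had an almost opposite place for granule neurons: it was lowest in Exc-DG (2.77 ± 0.841) and low in Exc-CA3 (14.4 ± 1.95), while Exc-CA1-Camk2d (109.8 ± 11.5), Inh-MGE (107 ± 6.33), Exc-CA1-Fras1 (98.9 ± 5.69) and oligodendrocyte precursors (92.9 ± 17.1) overlapped at its top.

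The beta subunits parted between neurons and astrocytes. Gabrb1 was highest in astrocytes at 3708 ± 210.0 CPM, with all 4 libraries above those of Exc-CA3 (1604 ± 111), and it was lowest in oligodendrocytes (69.1 ± 19.6). Gabrb2 was lowest in astrocytes (17.8 ± 3.12) and highest in Exc-Gpc6 (616 ± 25.4), again with no overlap with the next type, Exc-DG (471 ± 20.8). Of the excitatory types Exc-CA3 had the least Gabrb2 (102 ± 10.4) and the most Gabrb1. Gabrg3 was highest in Inh-MGE (1252 ± 237) and Exc-ENT (884 ± 148), which overlapped, and it was far lower in Exc-DG (129.7 ± 70.7), where the strains differed. Gabrd, the delta subunit of extrasynaptic receptors, was highest in Exc-DG (43.7 ± 3.93) and next in Inh-MGE (29.6 ± 4.33), both clear of the type that followed, and lowest in Exc-CA3 (1.59 ± 0.349).

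**Figure D1:**
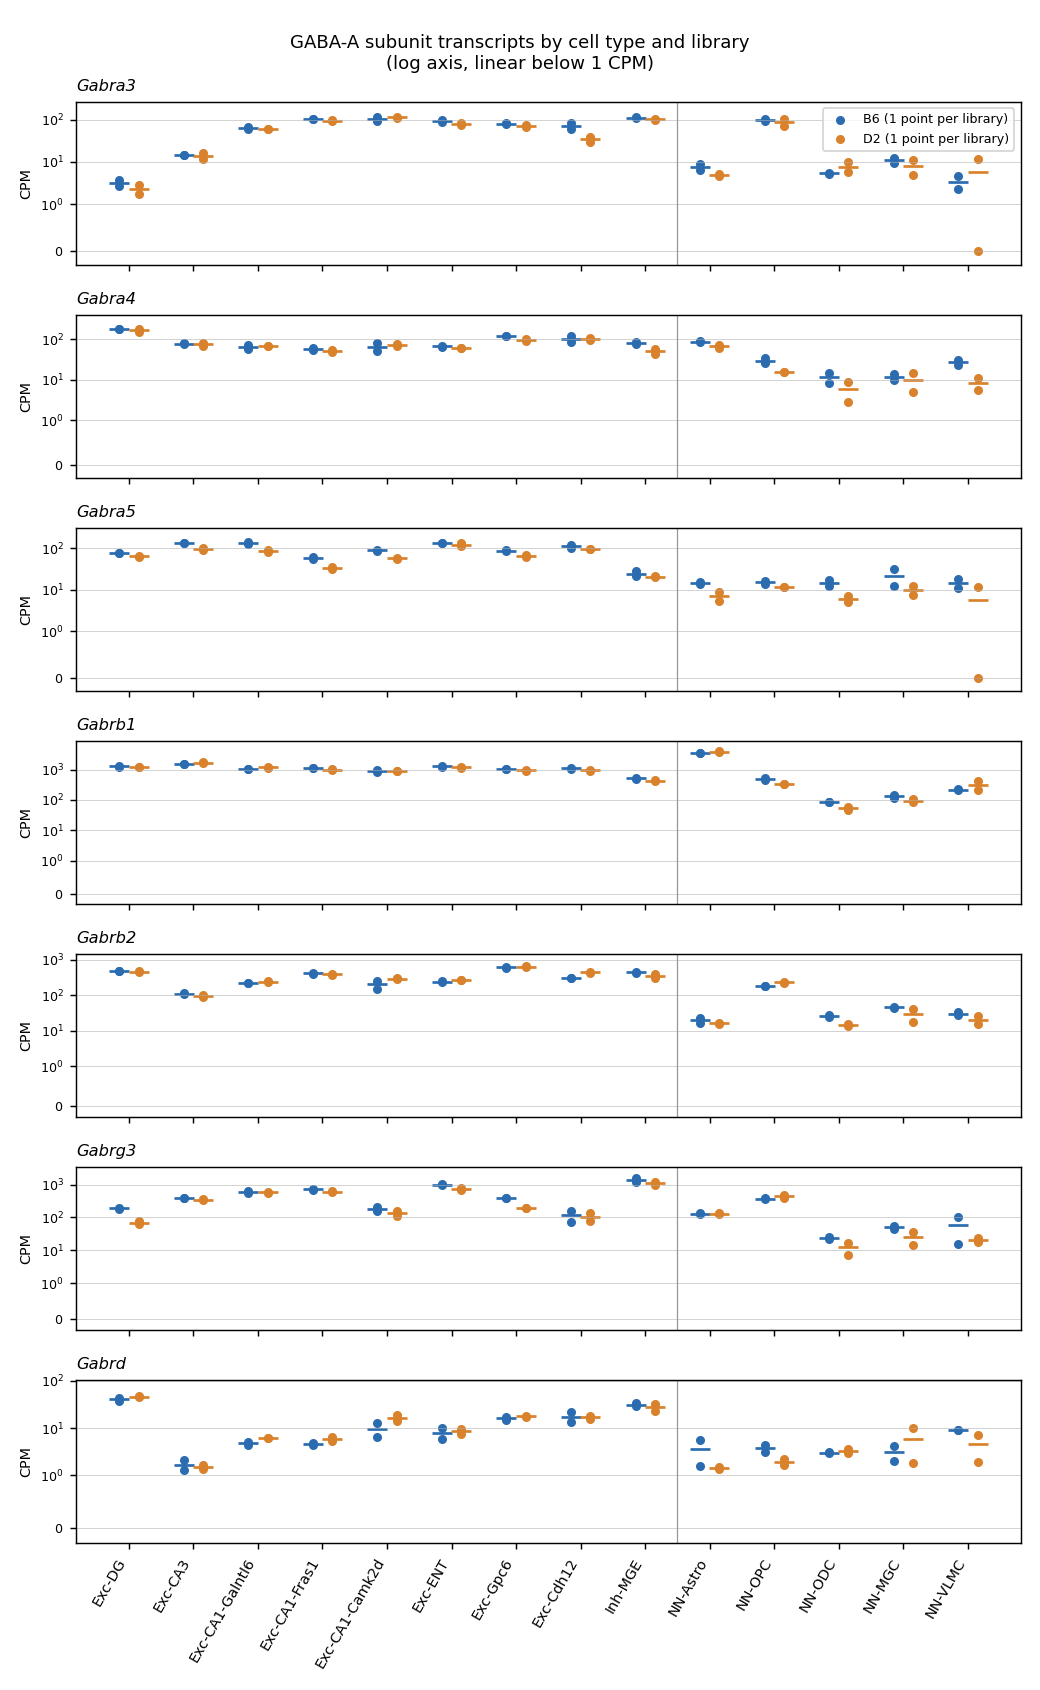
Level of each subunit (CPM, axis linear near 0 and logarithmic above) in 14 cell types, with 1 point per library, coloured by strain. Gabra4 and Gabrd peak in Exc-DG (means 175 and 43.7 CPM), where Gabra3 is at its lowest (2.77 CPM).

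The highest type exceeded the lowest 69.4-fold for Gabrg3, 53.7-fold for Gabrb1, 39.7-fold for Gabra3, 34.6-fold for Gabrb2, 27.6-fold for Gabrd, 20.2-fold for Gabra4 and 12.5-fold for Gabra5. Most neighbours in these orders were not separated, since only 1 (Gabrg3) to 4 (Gabrb1 and Gabrb2) of 13 steps had libraries that did not overlap. With counts divided by the number of nuclei instead, the highest type of Gabra5 and of Gabrb1 became Exc-CA3. Over the 14 types, log2 levels of Gabra4 and Gabrb1, which share a start region, correlated most (Pearson's r = 0.870), and those of Gabrb1 and Gabrd least (r = 0.121). These correlations are descriptive, as all types came from the same 4 libraries.

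The D2 and B6 libraries were compared within each cell type with edgeR's quasi-likelihood test, and p-values were adjusted by the Benjamini-Hochberg method over all genes tested in that type. A pair of member and cell type is called at an adjusted p under 0.05, and differences are log2 of D2 over B6, so that negative values are lower in D2. Parentheses give this log2 difference, its standard error (SE) and the adjusted p. The cell types of an assay share the same 4 libraries, so equal signs, or strains that do not overlap, over several types are not independent. The share of all genes whose strains do not overlap was not counted. Strains that do not overlap are therefore a description, since an exact two-sided permutation test of such a split cannot go below 0.33. Of 98 pairs, 83 passed edgeR's filter on low counts and 24 were called (28.9%), against 23.8% over all genes and types. Of the 24 calls, 21 were lower in D2, where 9.91% of all tests fell, and 3 were higher, where 13.9% rose. Of the features counted, 8194 had counts in D2 and none in any B6 library, against 963 the other way. At least 10 counts were found for 5266 and 247 of them. Whether both strains were counted over the same set of genes was not tested. The shares over all genes, 13.9% higher among them, include such features and are limited by this. Among genes counted in both strains the shares were 8.95% lower and 6.74% higher, and the members then had 19 lower and 2 higher calls. The median difference over the 83 pairs was -0.18, beside medians over all genes of 0.01 to 0.06 per cell type. DESeq2 called 11 of the pairs.

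By cell type, 4 of 5 tested members were called in oligodendrocytes, all lower (19% of all genes called in either direction, 8.93% lower), 3 of 6 in precursors (16.2%) and 3 of 7 in Exc-CA1-Fras1 (28.5%). Exc-DG (36% of all genes), Exc-CA1-Galntl6 (35%), astrocytes (26.2%), Exc-Gpc6 (19.7%) and Exc-Cdh12 (8.44%) had 2 each. Exc-CA3 (32.1%), Exc-ENT (28%), Inh-MGE (21%) and Exc-CA1-Camk2d (19.4%) had 1 each. Microglia had 0 of 3 tested members called by edgeR and NN-VLMC 0 of 1, beside 10.4% and 7.87% of all genes, with 2 and 1 at an unadjusted p under 0.05. The members' shares thus lay on both sides of those over all genes. The summed level of 3 of 3 oligodendrocyte markers, none of them at 0, was also lower in D2 with no overlap in 9 of 9 neuronal types at 91.2 to 185 CPM in B6 and 63.6 to 135 in D2 over these types. Its part in the neuronal differences below was not tested.

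**Figure D2:**
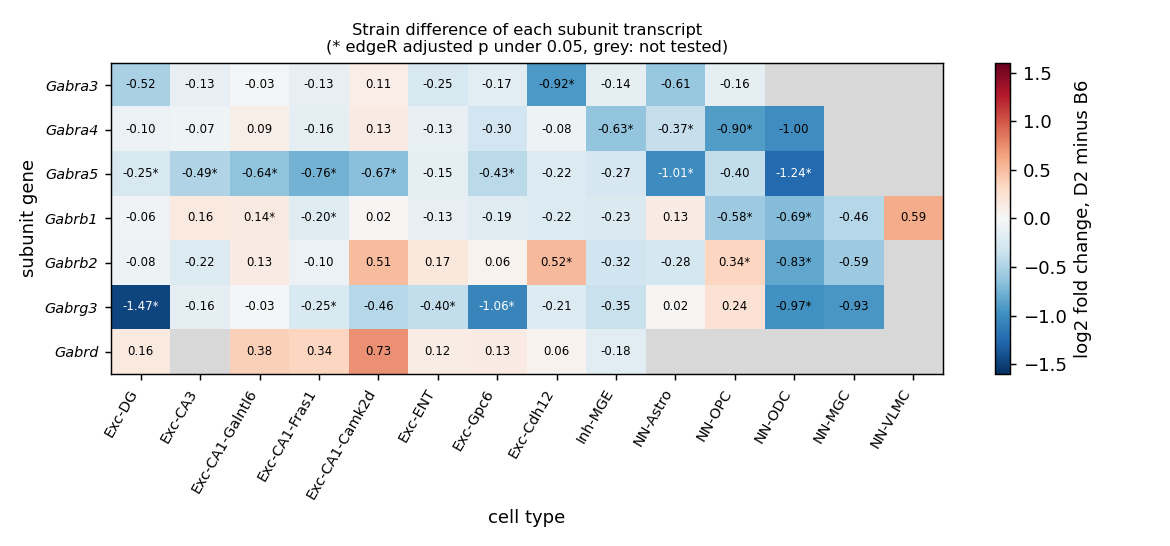
Log2 difference between D2 and B6 for each subunit (rows) and cell type (columns), blue for lower and red for higher in D2, a star for adjusted p under 0.05 and grey for pairs not tested. Gabra5 is negative in all 12 tested types, and Gabrg3 has its largest falls in Exc-DG (-1.47) and Exc-Gpc6 (-1.06).

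Gabra5, the alpha subunit of extrasynaptic receptors of pyramidal neurons, was lower in D2 in 12 of 12 tested types and was called in 8. The clearest calls were in the Exc-CA1 types and Exc-CA3. Exc-CA1-Galntl6 had 131 and 141 CPM in B6 and 90.0 and 84.5 CPM in D2 (-0.64, SE 0.08, edgeR adjusted p = 7.60e-06). Exc-CA1-Fras1 had 55.6 and 61.6 CPM in B6 and 36.6 and 32.1 CPM in D2 (-0.76, SE 0.13, edgeR adjusted p = 8.69e-05). Exc-CA1-Camk2d had 94.3 and 89.0 CPM in B6 and 59.6 and 55.3 CPM in D2 (-0.67, SE 0.13, edgeR adjusted p = 0.00151). The strains were thus apart in each of the 3 Exc-CA1 types, as were the oligodendrocyte markers there (141.5 to 148.8 CPM in B6 and 90.4 to 95.5 in D2 in Exc-CA1-Fras1). Exc-CA3 had 135 and 137 CPM in B6 and 103 and 90.4 CPM in D2 (-0.49, SE 0.09, edgeR adjusted p = 0.000566). Exc-DG fell less, with 76.5 and 77.0 CPM in B6 and 66.3 and 62.7 CPM in D2 (-0.25, SE 0.08, edgeR adjusted p = 0.0267). Exc-Gpc6 had 86.9 and 90.0 CPM in B6 and 63.6 and 69.0 CPM in D2 (-0.43, SE 0.14, edgeR adjusted p = 0.0231). These 3 types had no overlap between strains either. Exc-ENT, the type with the highest level, did not pass (-0.15, SE 0.10, edgeR adjusted p = 0.312), nor did Inh-MGE (-0.27, SE 0.19, edgeR adjusted p = 0.375).

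The calls of Gabra5 in Exc-CA1-Galntl6, Exc-CA1-Fras1 and Exc-CA3 held under all 9 alternatives. That in Exc-CA1-Camk2d was lost only without D2 library 3 (adjusted p = 0.113), and those in Exc-DG and Exc-Gpc6 were lost under DESeq2 (adjusted p = 0.129 and 0.441) and without B6 library 3 or either D2 library. Low levels in glia were also lower in D2: astrocytes had 13.6 and 15.6 CPM in B6 and 9.07 and 5.53 CPM in D2 (-1.01, SE 0.29, edgeR adjusted p = 0.00697), and oligodendrocytes had 12.3 and 16.9 CPM in B6 and 5.25 and 7.14 CPM in D2 (-1.24, SE 0.39, edgeR adjusted p = 0.0238). Neither glial call held under DESeq2 or without D2 library 3, and that in oligodendrocytes was also lost without B6 library 3 or D2 library 2.

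Gabra4, the usual partner of delta in granule neurons, was not called in Exc-DG, where the libraries overlapped at 183 and 179 CPM in B6 and 157 and 182 CPM in D2 (-0.10, SE 0.08, edgeR adjusted p = 0.382). It was called lower in 3 other types. Inh-MGE had 75.5 and 84.3 CPM in B6 and 58.3 and 44.1 CPM in D2 (-0.63, SE 0.14, edgeR adjusted p = 0.00362). Astrocytes had 90.1 and 87.1 CPM in B6 and 62.6 and 73.9 CPM in D2 (-0.37, SE 0.12, edgeR adjusted p = 0.0216). Precursors had 33.8 and 25.9 CPM in B6 and 15.8 and 15.8 CPM in D2 (-0.90, SE 0.30, edgeR adjusted p = 0.0234). The strains did not overlap in these types, but the glial calls were each lost under 4 of 9 alternatives, DESeq2 among them (adjusted p = 0.295 and 0.489), and that in Inh-MGE without D2 library 3 (0.0712). Gabra3 was called only in Exc-Cdh12, the excitatory type with the fewest nuclei. There it stood at 82.7 and 58.7 CPM in B6 and 39.9 and 30.0 CPM in D2 (-0.92, SE 0.26, edgeR adjusted p = 0.0458), and the call was lost under DESeq2 (adjusted p = 0.395), with genes counted in both strains only, without B6 library 2 and without D2 library 3. Among its 11 tested types, 10 differences were negative.

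Gabrb1 showed its firmest strain difference in oligodendrocyte precursors, the proliferating cells that give rise to myelinating oligodendrocytes. There it stood at 528 and 452 CPM in B6 and 327 and 328 CPM in D2 (-0.58, SE 0.11, edgeR adjusted p = 2.21e-06), and the call held under all 9 alternatives. The oligodendrocyte markers in these libraries did not overlap either and were higher in D2 (280 to 321 CPM in B6 and 362 to 532 in D2), and their part in the difference was not tested. Oligodendrocytes had 85.3 and 85.3 CPM in B6 and 60.1 and 45.7 CPM in D2 (-0.69, SE 0.17, edgeR adjusted p = 0.00363), a call lost under DESeq2 (adjusted p = 0.154) and without D2 library 3. Within neurons the gene moved both ways by small amounts. In Exc-CA1-Fras1 it fell, with 1154 and 1147 CPM in B6 and 1047 and 957 CPM in D2 (-0.20, SE 0.07, edgeR adjusted p = 0.0378), and in Exc-CA1-Galntl6 it rose, with 1079.5 and 1065 CPM in B6 and 1166 and 1195 CPM in D2 (0.14, SE 0.05, edgeR adjusted p = 0.0344). The rise was lost under DESeq2 and without any 1 of the 4 libraries, and the fall without either B6 library, without D2 library 3 or with a replicate block (adjusted p up to 0.261). In astrocytes, its highest type, Gabrb1 did not pass (0.13, SE 0.08, edgeR adjusted p = 0.294), although the strains did not overlap, with D2 higher.

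Of the 3 calls higher in D2, 2 were of Gabrb2. In Exc-Cdh12 it stood at 301 and 306 CPM in B6 and 424 and 447 CPM in D2 (0.52, SE 0.14, edgeR adjusted p = 0.042), and in precursors at 176 and 181 CPM in B6 and 235 and 217 CPM in D2 (0.34, SE 0.12, edgeR adjusted p = 0.0346). In oligodendrocytes it was lower, with 24.01 and 26.7 CPM in B6 and 13.5 and 15.0 CPM in D2 (-0.83, SE 0.28, edgeR adjusted p = 0.0362). None of these 3 calls held under DESeq2 (adjusted p = 0.237, 0.415 and 0.533), and they held under 4, 3 and 5 of 9 alternatives. In the oligodendrocyte libraries, where Gabra5, Gabrb1, Gabrb2 and Gabrg3 were all called lower, the 3 excitatory neuron markers were all above 0 and summed to 80.4 to 89.9 CPM in B6 and 64.3 to 81.1 in D2. In astrocytes they summed to 72.7 to 73.3 in B6 and 47.9 to 72.6 in D2, and the oligodendrocyte markers to 268 to 299 in B6 and 122 to 141 in D2. The part of these markers in the glial differences was not tested.

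Gabrg3, the gamma subunit of the set, had the largest fall of all pairs called. In Exc-DG it stood at 188 and 193 CPM in B6 and 75.9 and 61.5 CPM in D2 (-1.47, SE 0.09, edgeR adjusted p = 1.35e-08). In Exc-Gpc6 the values were 401 and 403 CPM in B6 and 197 and 188 CPM in D2 (-1.06, SE 0.10, edgeR adjusted p = 2.49e-10). Smaller falls were called in Exc-ENT, with 1036 and 974 CPM in B6 and 814 and 713 CPM in D2 (-0.40, SE 0.08, edgeR adjusted p = 8.63e-05), and in Exc-CA1-Fras1, with 711 and 728 CPM in B6 and 621 and 591 CPM in D2 (-0.25, SE 0.07, edgeR adjusted p = 0.0122). The strains did not overlap in any of these 4 types. In the 2 other Exc-CA1 types and in Exc-CA3 the gene did not pass. In Exc-CA1-Galntl6 the libraries mixed, with 567 and 628 CPM in B6 and 551 and 617 CPM in D2 (-0.03, SE 0.07, edgeR adjusted p = 0.749). Inh-MGE, where Gabrg3 is highest, had 1242 and 1567 CPM in B6 and 1206 and 992 CPM in D2 and missed the threshold (-0.35, SE 0.13, edgeR adjusted p = 0.0682). In astrocytes the strains were mixed, with 127 and 135 CPM in B6 and 133 and 131 CPM in D2 (0.02, SE 0.11, edgeR adjusted p = 0.942). Oligodendrocytes, with low levels of 25.5 and 22.2 CPM in B6 and 17.3 and 7.14 CPM in D2, were called (-0.97, SE 0.33, edgeR adjusted p = 0.0408), but not under DESeq2 (adjusted p = 0.504), with genes counted in both strains only, without B6 library 2 or without D2 library 3.

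The calls in Exc-DG, Exc-Gpc6 and Exc-ENT held under each of 9 alternatives, DESeq2 and the loss of each library included, while that in Exc-CA1-Fras1 was lost without B6 library 3 or D2 library 3 (adjusted p up to 0.0985). The oligodendrocyte markers summed to 124 to 135 CPM in D2 and 185 in each B6 library of Exc-DG, and to 106 in each D2 library and 170.5 to 177 in B6 in Exc-Gpc6. In Exc-CA1-Galntl6 they were lower in D2 as well (77.3 to 88.2 against 124.5 to 128 CPM), and their part in the Gabrg3 differences was not tested. The 3 granule neuron markers summed to 281 to 287 CPM in D2 and 366 to 379 in B6 in Exc-DG, and their part in the Gabrg3 difference was not tested. Within Gabrg3 the annotation places 3 genes on the same strand that were counted in D2 only, with 203 counts in all. On the opposite strand Gm18642 (58 counts) and Gm44979 (2) were also counted in D2 only. Other members hold such genes too, among them Gm15617 in Gabrb1 (2265 counts in D2) and Gm14735 in Gabra3 (405). These counts do not show how many reads of a member were lost to such genes, and their part in the differences was not tested.

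Gabrd was tested in 8 types and called in none by edgeR, with 1 at an unadjusted p under 0.05 (Exc-CA1-Camk2d, 0.73, SE 0.30, edgeR adjusted p = 0.127). It was the only member whose differences were mostly positive, in 7 of 8 tested types. In Exc-DG, its main site, it stood at 38.2 and 44.4 CPM in B6 and 45.03 and 47.3 CPM in D2 (0.16, SE 0.10, edgeR adjusted p = 0.252). The strains did not overlap, though the nearest libraries were less than 1 CPM apart.

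Whether the strain difference itself varied between cell types was tested with an edgeR model over all 14 types. The model had 13 strain-by-cell-type terms and each library as a term. Its p-values therefore measure the scatter of cell types within the 4 libraries, not the spread between libraries. Such variation was called for 5 of the 7 members, beside 13.9% of the 21520 genes tested. Adjusted p was 2.13e-08 for Gabrg3, 2.96e-05 for Gabrb2, 5.10e-05 for Gabrb1, 0.0092 for Gabra4 and 0.0157 for Gabra5 in this edgeR test, and 0.257 for Gabra3 and 0.241 for Gabrd. The log2 differences of Gabrg3 ran from -1.47 in Exc-DG to 0.24 in precursors, and those of Gabrb2 from -0.83 in oligodendrocytes to 0.52 in Exc-Cdh12. With neuronal types alone, Gabra4 dropped out. Without D2 library 3 only 3 members were called, and Gabra5 was at an adjusted p of 0.549.

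Open chromatin was measured at 314 peaks in or near the 7 genes, taken as peaks within 2 kb of a gene. Of 2431 pairs of peak and neuronal cell type tested, 64 were called (2.63%), 40 lower and 24 higher in D2, beside 3.2% of all peaks and types (1.56% lower and 1.64% higher). DESeq2 called 17 of the 64. Gabrg3 held 39 of the calls, 30 lower and 9 higher, among 700 pairs (5.57%). Gabrb1 had 10 calls among 847 pairs (1.18%, 2 lower and 8 higher) and Gabrb2 9 among 449 (2%, 5 and 4). Gabra5 had 4 among 209 (1.91%, 2 and 2) and Gabra4 1 lower among 165 (0.606%). The shares of these 4 genes lay below the 3.2% over all peaks. Gabrd had 1 higher among 27 (3.7%) and Gabra3 none among 43 by edgeR, with 2 at an unadjusted p under 0.05. Peaks of 1 gene share its sequence and the same libraries, and they are no replicates of each other.

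Within Gabrg3, called peaks lay mostly in Exc-DG, Exc-CA1-Galntl6 and Exc-Gpc6. In Exc-DG 12 of 91 tested peaks were called, all lower (13.2%, beside 5.97% of all peaks there and 2.58% lower), and the median difference of the 91 was -0.64 against -0.00066 for all peaks there. Exc-Gpc6 had 5 of 46 called, 4 of them lower (10.9%, beside 2.41%), with a median of -0.41. In Exc-CA1-Galntl6, where the transcript was not called, 8 of 95 were called, 4 in each direction (8.42%, beside 5.26%), and the median was -0.09. Inh-MGE had 0 of 93 called by edgeR, beside 0.87% of all peaks, with 9 at an unadjusted p under 0.05 and a median of -0.28. Of all peaks, 5.03% were called in Exc-CA3, 2.56% in Exc-CA1-Camk2d, 2.18% in Exc-CA1-Fras1, 1.39% in Exc-ENT and 0.473% in Exc-Cdh12, where Gabrg3 had 4 of 92, 3 of 82, 3 of 89, 4 of 87 and 0 of 25 (2 at an unadjusted p under 0.05). Whether the medians or shares differ between types was not tested.

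**Figure D3:**
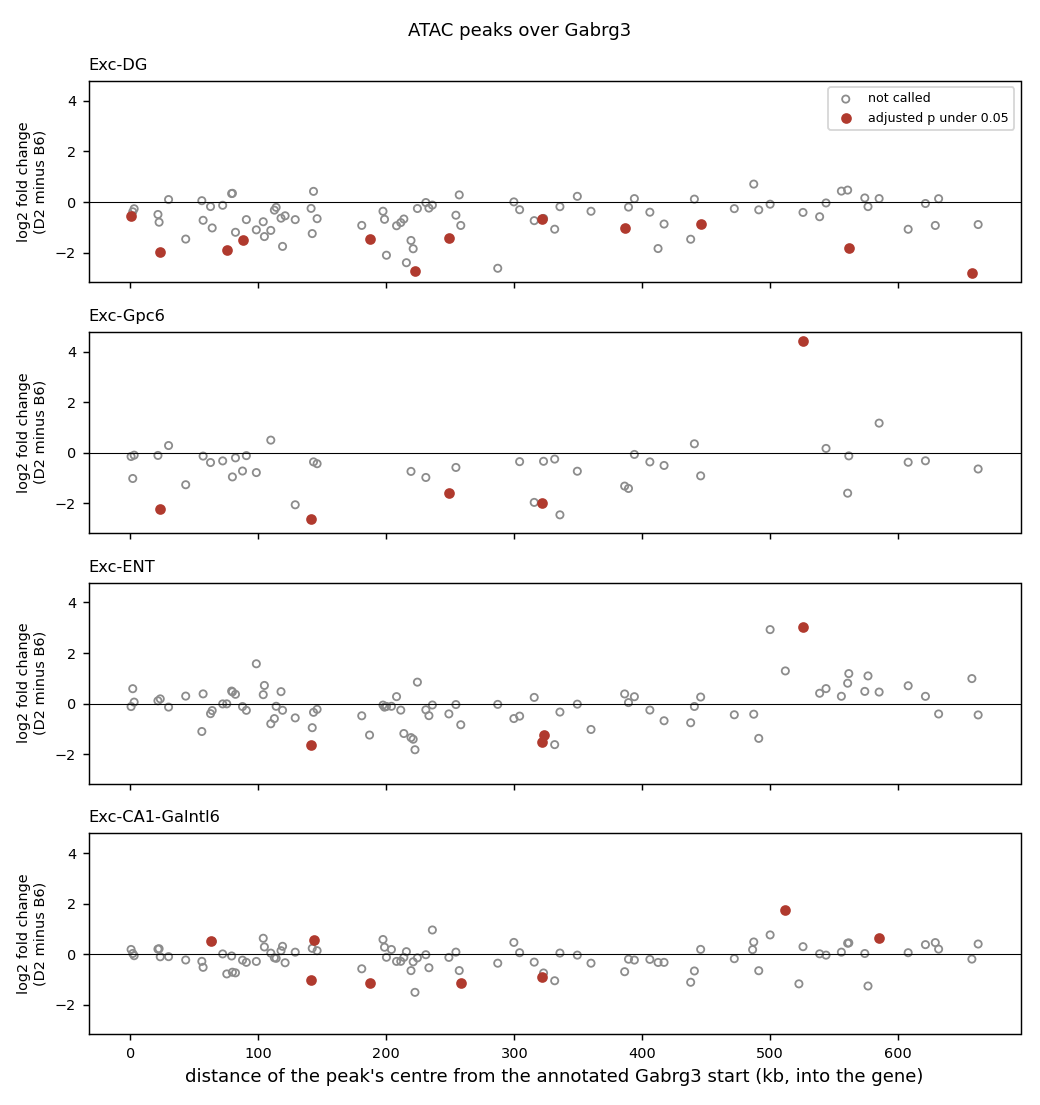
Log2 difference between D2 and B6 of each Gabrg3 peak (y axis) against the distance of its centre from the gene start in kb (x axis), in 4 neuronal types, with called peaks in filled red. In Exc-DG the 12 called peaks all lie below 0, while Exc-CA1-Galntl6 has 4 on each side.

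The promoter peak of Gabrg3 (chr7:57385887-57387476), which contains the whole upstream sequence printed above, was lower in D2 in Exc-DG. It stood at 11.8 and 11.6 CPM in B6 and 9.16 and 6.97 CPM in D2 (-0.57, SE 0.12, edgeR adjusted p = 7.04e-05), and the strains did not overlap. This was the 1 call among 63 pairs of 7 promoter peaks, beside 3.2% of all peaks and types. In the other 8 types the difference of this peak lay between -0.39 and 0.19 and was not called. Gm9962, a noncoding gene annotated on the opposite strand 84 bases from the Gabrg3 start, had 4.96 and 5.48 CPM in B6 and 3.02 and 3.61 CPM in D2 in Exc-DG (-0.66, SE 0.24, edgeR adjusted p = 0.0457).

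An intronic Gabrg3 peak (chr7:57065240-57066619), centred 321.3 kb from the start, was lower in D2 in all 9 neuronal types and called in 7. Its middle 300 bases are printed because it was among the 2 peaks with the largest called differences at a mean of at least 5 CPM. They are on the plus strand of GRCm38, with the single CpG in capitals.
Gabrg3 intronic peak, chr7:57065780-57066079: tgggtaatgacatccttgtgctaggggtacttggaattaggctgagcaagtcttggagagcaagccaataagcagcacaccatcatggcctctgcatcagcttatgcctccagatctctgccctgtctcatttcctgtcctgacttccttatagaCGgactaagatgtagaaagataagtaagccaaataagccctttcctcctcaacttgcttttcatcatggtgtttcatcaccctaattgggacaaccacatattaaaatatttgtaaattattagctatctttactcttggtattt
The fall was called in Exc-Gpc6 (-1.99), Exc-CA1-Camk2d (-1.75), Exc-CA3 (-1.69), Exc-ENT (-1.51), Exc-CA1-Galntl6 (-0.89), Exc-CA1-Fras1 (-0.78) and Exc-DG (-0.66). In Exc-ENT it stood at 10.9 and 10.0 CPM in B6 and 4.23 and 3.12 CPM in D2 (-1.51, SE 0.25, edgeR adjusted p = 1.48e-06). Exc-CA1-Galntl6, whose Gabrg3 transcript was not called, had 7.83 and 7.60 CPM in B6 and 5.08 and 3.37 CPM in D2 (-0.89, SE 0.16, edgeR adjusted p = 3.67e-06). Counts behind this peak were small, with 18 in the 2 D2 libraries of Exc-Gpc6 together. Other Gabrg3 peaks moved the other way: chr7:57243638-57244466, also intronic, was higher in D2 in Exc-CA1-Galntl6 (0.57, SE 0.12, edgeR adjusted p = 7.15e-05) and in Exc-CA1-Camk2d (0.58, SE 0.17, edgeR adjusted p = 0.0314). Another, chr7:56940635-56942345, was higher in D2 in Exc-CA1-Fras1 (0.67, SE 0.19, edgeR adjusted p = 0.0235) and lower in Exc-DG (-0.86, SE 0.23, edgeR adjusted p = 0.00756). Most calls of Gabrg3 rested on peaks under 5 CPM, among them chr7:56861247-56861787, named here after its values were seen, which was higher in D2 in Exc-Gpc6 (log2 difference 4.43, edgeR adjusted p = 8.08e-13).

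**Figure D4:**
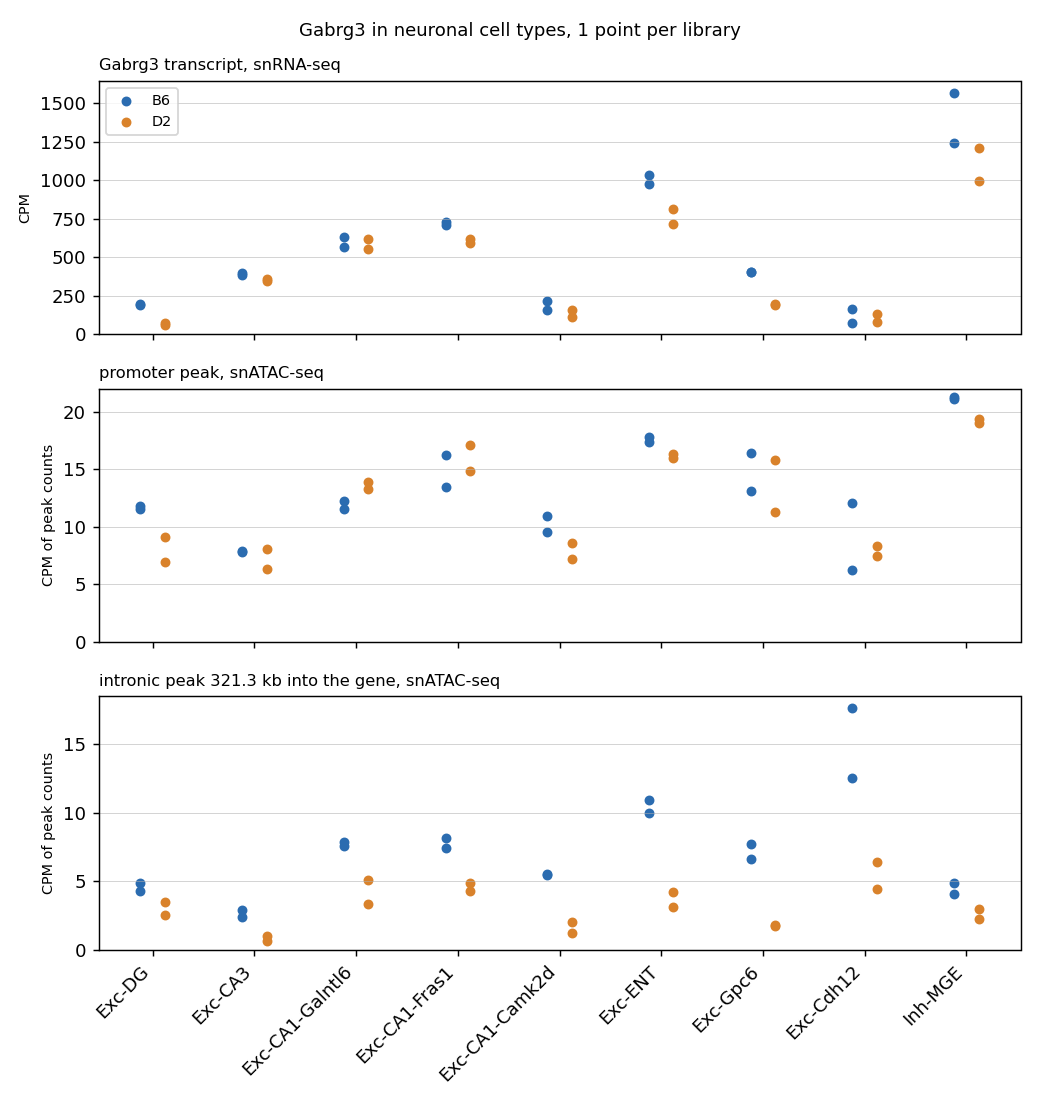
Gabrg3 transcript, promoter peak and intronic peak (CPM, 1 point per library, coloured by strain) in 9 neuronal types. The transcript separates the strains most in Exc-DG and Exc-Gpc6, while both D2 libraries lie below the B6 libraries at the intronic peak in Exc-CA1-Galntl6 too.

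Gabrb1 had the smallest adjusted p of all 2431 pairs. The intronic peak chr5:72068626-72069718, centred 411.1 kb from the start, was lower in D2 in Exc-CA3, with 10.1 and 10.2 CPM in B6 and 3.94 and 3.53 CPM in D2 (-1.45, SE 0.15, edgeR adjusted p = 2.89e-14), and in Exc-CA1-Galntl6 (-0.62, SE 0.18, edgeR adjusted p = 0.0134). The Gabrb1 transcript in Exc-CA3 did not pass and was higher in both D2 libraries (0.16, SE 0.07, edgeR adjusted p = 0.0917). Another intronic peak (chr5:71972547-71973206), centred 314.8 kb from the start, was higher in D2 in Exc-Gpc6, with 4.37 and 3.69 CPM in B6 and 11.7 and 10.2 CPM in D2 (1.47, SE 0.29, edgeR adjusted p = 4.92e-05). Its middle 300 bases, with 3 CpG sites in capitals, are shown on the plus strand of GRCm38 because the peak had the largest rise among the called peaks of at least 5 CPM.
Gabrb1 intronic peak, chr5:71972727-71973026: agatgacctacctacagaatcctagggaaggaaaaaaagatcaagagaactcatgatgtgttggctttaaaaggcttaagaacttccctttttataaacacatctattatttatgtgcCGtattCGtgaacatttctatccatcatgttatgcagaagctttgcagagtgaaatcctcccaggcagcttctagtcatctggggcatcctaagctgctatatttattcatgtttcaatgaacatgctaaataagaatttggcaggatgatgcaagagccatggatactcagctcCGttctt
A neighbouring peak, chr5:71969919-71970743, was higher in Exc-CA1-Camk2d (0.98, SE 0.26, edgeR adjusted p = 0.00929). The promoter peak that Gabra4 and Gabrb1 share (chr5:71656397-71658549) was not called in any of the 9 types, with differences of -0.10 to 0.27. The Gabra5 promoter peak (chr7:57508112-57510377) was lower in D2 in 9 of 9 types (-0.34 to -0.02) and also never called (lowest edgeR adjusted p = 0.348). At Gabrd an intronic peak (chr4:155395234-155395880) was higher in D2 in Exc-DG (0.41, SE 0.12, edgeR adjusted p = 0.0138), and at Gabra5 an exonic peak (chr7:57490748-57491095) was higher in Exc-CA3 (0.57, SE 0.17, edgeR adjusted p = 0.0268).

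Other genes of the GABA synapse were taken from a list of 38 genes, of which 33 were tested in at least 1 type. Of their 398 pairs 74 were called (18.6%, beside 23.8% over all genes), 59 lower and 15 higher in D2. Other GABA-A subunits had 24 calls among 67 pairs (35.8%), 22 of them lower. Gabra2, an alpha subunit gene 473.9 kb from Gabra4, was negative in 14 of 14 types and called in 7, such as Exc-DG (-0.43, SE 0.06, edgeR adjusted p = 5.41e-05) and Exc-Gpc6 (-0.66, SE 0.10, edgeR adjusted p = 2.47e-06).

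The metabotropic GABA-B receptor genes had 10 of 28 pairs called (35.7%, beside 23.8% over all genes), all lower (9.91% over all genes), and Gabbr2 accounted for 6. Chloride transporters, which set the direction of the current through the receptor, had 5 of 28 called (17.9%), all lower. Receptor trafficking genes had 6 of 84 (7.14%), all lower and all of them Plcl1, which encodes a protein that binds the trafficking factor GABARAP (-0.31, SE 0.07, edgeR adjusted p = 0.00174 in Exc-DG). Scaffold and auxiliary genes went both ways, with 12 lower and 11 higher of 134 (17.2% called). Gphn, which encodes gephyrin, the scaffold that holds receptors at the synapse, was positive in 14 of 14 types and called higher in 5, such as Exc-ENT (0.24, SE 0.08, edgeR adjusted p = 0.0158) and microglia (0.67, SE 0.13, edgeR adjusted p = 0.00151). Mdga1 and Shisa7 were called higher in 3 and 2 types. Genes for making, moving and degrading GABA had 4 lower and 2 higher calls among 57 pairs (10.5%). The called shares of these last 4 groups thus lay below that over all genes.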

How the data were processed

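The snRNA-seq and snATAC-seq files hold raw counts that the authors deposited, summed per gene or peak over the nuclei of each cell type and library. Per the labels and the study's methods, reads were processed with Cell Ranger 6.0.2 (introns retained) and Cell Ranger ATAC 2.0.0, against mm10 for B6 and mm10 with D2 alleles at known variants for D2, doublets were removed, nuclei were clustered in Seurat 4.0.5, and peaks were called per sample and merged. The 16 methylation samples of the series were not analysed here. Of the RNA and ATAC columns 12 and 24 were not used, and strains were taken from the deposited metadata table, and the library numbers 2 and 3 match no single sample label.

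Per cell type, D2 and B6 were compared with edgeR 4.0.16 (R 4.3.3; TMM normalization, filterByExpr for genes, at least 10 counts over the 4 libraries for peaks), with Benjamini-Hochberg adjustment over all features. DESeq2 1.42.0, other normalization and filters, a replicate block and the loss of each library were alternatives. CPM are per TMM-scaled library. SE is the size of the log2 difference over the square root of F. Tests were checked on simulated data with 200 genes of at least 5 CPM changed 2-fold and the others unchanged. There edgeR recovered 97.5% in Exc-DG, 68% in Exc-Gpc6 and 59.5% in NN-ODC, with 6.70%, 3.55% and 3.25% of its calls false. DESeq2 recovered 82%, 41% and 21.5% in these types. The test of strain-by-cell-type terms recovered 49% of 200 genes changed 2-fold in D2 in 3 types, with 2% of its calls false. Unlike the others, this simulation gave all genes the same scatter. It held no deviation shared by the cell types of a library, so its shares may not hold for the real counts. Neither smaller changes nor a larger share of changed genes was simulated. Depth ran from 225029 to 11352265 counts in snRNA-seq, so low genes of small types carry large errors. The members and gene lists were chosen with earlier results of these data known. Named were all members, the 3 genes most similar to each in pattern, up to 4 listed genes per direction with calls in the most types, promoter peaks, and up to 2 other peaks per member and direction with the largest differences among those called at a mean of at least 5 CPM. Some genes that this rule names are not reported here.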

Additional observations from a re-analysis of the deposited data

Results flagged for a closer look

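For 5 of the 7 subunit genes the strain difference was not the same in all cell types, by the edgeR test of 13 strain-by-cell-type terms. The p-values of that test measure scatter within the 4 libraries, not between them. Gabrg3 had the smallest adjusted p (2.13e-08), with falls in Exc-DG and Exc-Gpc6 and no call in Exc-CA1-Galntl6 or astrocytes. Gabrb2 followed (2.96e-05), called higher in Exc-Cdh12 and precursors and lower in oligodendrocytes, and then Gabrb1 (5.10e-05), called lower in precursors, oligodendrocytes and Exc-CA1-Fras1 and higher in Exc-CA1-Galntl6. Gabra4 (0.0092) was called lower in Inh-MGE, astrocytes and precursors, and Gabra5 (0.0157) had differences of one sign and of differing size. No cause of these differences was tested.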

How the results depend on the processing

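Calls in snRNA-seq depended most on D2 library 3 and on the tool. Of the 24 pairs of subunit and cell type called, DESeq2 kept 11, a replicate block gave 26, other alternatives gave 21 to 27, and leaving out 1 library gave 10 to 22, the lowest without D2 library 3, which kept 8 of the 24. The 74 calls of the GABA synapse list became 37 with DESeq2, 76 with the block and 39 to 65 without 1 library. Members with a strain difference that varied between types numbered 5, and 3 to 6 without 1 library, 4 without the library term and 4 in neurons alone. At peaks, 64 calls became 17 with DESeq2, 64 with the block and 32 to 46 without 1 library. Same-numbered libraries deviated together with correlations of -0.15 to 0.06, so the number is taken as a name only. In Inh-MGE, the type at -0.15, a crossed block chosen after seeing the data called 4 members in place of 1 and 4226 genes in place of 3173.

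The highest cell type stayed for 5 of 7 members per nucleus and for 6 or 7 without 1 library. Of the 21 genes with the most similar pattern, 11 remained with B6 libraries only, 10 with D2 only and 7 with Spearman's correlation. Over the alternatives run, signs turned for 0 of 24 called and 17 of 59 uncalled member differences in snRNA-seq. Among the differences of Gabrg3 and those named above, they turned for Gabra4 in Exc-DG to 0.0074 without D2 library 2 (range -0.20 to 0.0074 without 1 library), and for Gabrg3 in Exc-CA1-Galntl6 to 0.04 without B6 library 3 and 0.046 without D2 library 2 (range -0.11 to 0.046 without 1 library), in Exc-Cdh12 to 0.58 without B6 library 3 and 0.10 without D2 library 3 (-0.70 to 0.58), and in astrocytes to -0.019 without B6 library 2 (-0.019 to 0.063). The causes were not tested. With 2 libraries a strain, differences that missed the threshold may be real, and members under about 10 CPM in glia carry few counts.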

Other observations

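For each subunit gene the 3 genes with the most similar pattern over 14 cell types were taken, by Pearson's r of log2 CPM plus 1 among 13376 genes. For Gabrg3 the first was Gm9962 (r = 0.973), the noncoding gene that starts 84 bases away on the opposite strand, highest in Inh-MGE at 19.3 CPM as Gabrg3 is. It kept the first rank in either strain alone (0.923 in B6, 0.950 in D2) and by Spearman's correlation (0.960). Gm9962 was called lower in D2 in 1 of 9 tested types, Exc-DG. For Gabrb1 the first was Trim9 (0.965), for Gabra4 Lgi1 (0.953), for Gabra3 Gap43 (0.953), for Gabrb2 Pelp1 (0.969), for Gabra5 Snapc4 (0.963) and for Gabrd Cygb (0.919). Several of these ranks rested on 1 strain: with B6 libraries alone Snapc4 fell to rank 324 for Gabra5 and Pelp1 to rank 312 for Gabrb2. All types came from the same 4 libraries, so these values describe likeness of pattern only.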
